A study of Homo sapiens with 29 samples.

Results

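Antisense noncoding RNA genes are named for a protein-coding gene nearby, usually on the other DNA strand, as in STX18-AS1 and STX18. Such transcripts are mostly not translated. Known antisense RNAs act in several ways: they can recruit or block chromatin regulators at their own locus, interfere with transcription of the sense gene, pair with its mRNA, or work elsewhere in the cell, and for many no function is known. Many start at or near the promoter of the sense gene, so that both can be fired from shared regulatory DNA. The array carried 781 genes whose annotated symbol ends in -AS and a number. Of these, 247 had a brightest probe set with a mean log2(intensity + 16) over all 29 arrays of at least 5.74, the median of the array, which is an intensity of 37.4. These 247 genes, among 12174 tested genes, are described here, and the 534 dimmer antisense genes are not. The mean level over all arrays chose the members, so these genes were chosen by their level and it is given as a description only. TOB1-AS1 (5.740, intensity 37.8), ZBTB46-AS1 (5.754, 38.2) and WDFY3-AS2 (5.766, 40.6) lay just inside the limit. EXTL3-AS1 (5.734, 38.0), MBNL1-AS1 (5.731, 37.7) and TNFRSF10B-AS1 (5.729, 37.3) lay just outside it.

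The cells were BEAS-2B, human bronchial epithelium immortalised by an adenovirus 12-SV40 hybrid, grown as 1 line in LHC-9 medium to about 70% confluence. They received N-OH-PhIP, the N-hydroxylated metabolite of a heterocyclic amine of cooked meat that binds DNA after activation, for 24 h. The doses were 0.1, 0.5, 1, 5, 10, 50, 100, 500 and 1000 nM, and every culture, controls included, contained 1% DMSO. Each group had 3 arrays from triplicate cultures except 0.5 nM with 2, and the question of the series is the lowest dose with a transcriptional effect. Every dose was set against the same 3 DMSO arrays, so comparisons share their error. In these bulk samples fewer cells with a transcript and less transcript per cell cannot be told apart.

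Normalized intensities ran from 4.26 to 20095, array medians from 35.8 to 38.4, and correlations between arrays of the same group from 0.980 to 0.998. Epithelial markers were at or above the level limit for 9 of the 10 measured, among them CDH1, EPCAM and KRT18, whereas 1 of 5 leukocyte markers, 0 of 5 endothelial markers and 1 of 6 fibroblast markers reached it. The summed epithelial marker intensity was 23728 in DMSO, 32698 at 500 nM and 30715 at 1000 nM, and the leukocyte sum was 88.6, 90.8 and 129.5. The endothelial sum was 84.0, 89.8 and 87.2, and the fibroblast sum was 666, 1072 and 852, where COL1A1 had a mean intensity of 714 and the other 5 were under the limit. The part of these marker levels in the results was not tested. The log2 ratio of 3′ to 5′ actin probe sets, a sign of RNA and amplification quality, was 2.21 ± 0.07 (SD, n = 3) in DMSO, 1.67 ± 0.20 at 500 nM and 1.52 ± 0.04 at 1000 nM, so it moved with the 2 doses at which most calls were made. It was highest at 1 nM (2.52 ± 0.10). The GAPDH ratio was 0.14, 0.20 and 0.17. DMSO replicate 1 and 500 nM replicate 3 correlated least with their groups over the members, each with a mean of 0.981.

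Probe sets differ in brightness for reasons other than RNA amount, so levels are compared within a gene and never between genes. The median intensity of the 247 genes was 115, against 533 for all tested genes, and it ranged from 37.8 to 5183. The annotation's gene names were used as given, and which strand each probe set reads was not checked, so signal of a sense gene in the probe set of its antisense partner was not tested. The brightest probe set stood for a gene. It was of the plain type for 198 members, of the _s type, shared between related transcripts, for 22, of the _a type, shared between transcripts of a gene, for 14 and of the _x type, which can cross-hybridise, for 13.

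Promoters of 5 members on which the results below turn are shown because they differ in layout. STX18-AS1 fell furthest, IDI2-AS1 and UNC5B-AS1 rose furthest, NR2F1-AS1 moved against its sense gene, and ICA1-AS1 starts beside a sense gene that fell while it did not. Each is 250 bases before to 50 bases after the RefSeq start, read 5′ to 3′ on the strand of the gene in build GRCh38.p14. Capitals mark, on either strand, GGGCGG, which is the GC box that Sp1 family factors bind. They also mark TATAAA, the core letters by which TBP finds some promoters. The last motif in capitals is TGANTCA, the site of Fos and Jun dimers, known as AP-1. STX18-AS1 lies at chr4:4541881-4542180 on the + strand, IDI2-AS1 at chr10:1022387-1022686 on the + strand, UNC5B-AS1 at chr10:71218179-71218478 on the - strand, NR2F1-AS1 at chr5:93585540-93585839 on the - strand and ICA1-AS1 at chr7:8261975-8262274 on the + strand.
STX18-AS1: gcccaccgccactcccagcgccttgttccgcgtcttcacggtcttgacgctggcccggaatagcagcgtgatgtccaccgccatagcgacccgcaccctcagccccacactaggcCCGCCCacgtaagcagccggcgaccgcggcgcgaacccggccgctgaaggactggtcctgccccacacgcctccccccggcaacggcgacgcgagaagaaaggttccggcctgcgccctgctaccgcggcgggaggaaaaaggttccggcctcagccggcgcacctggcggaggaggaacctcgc
IDI2-AS1: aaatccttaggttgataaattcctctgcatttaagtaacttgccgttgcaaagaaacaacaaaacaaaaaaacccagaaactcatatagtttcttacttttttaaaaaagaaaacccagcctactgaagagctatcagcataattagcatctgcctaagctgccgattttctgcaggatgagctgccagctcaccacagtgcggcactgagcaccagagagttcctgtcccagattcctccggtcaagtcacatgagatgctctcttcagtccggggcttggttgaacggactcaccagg
UNC5B-AS1: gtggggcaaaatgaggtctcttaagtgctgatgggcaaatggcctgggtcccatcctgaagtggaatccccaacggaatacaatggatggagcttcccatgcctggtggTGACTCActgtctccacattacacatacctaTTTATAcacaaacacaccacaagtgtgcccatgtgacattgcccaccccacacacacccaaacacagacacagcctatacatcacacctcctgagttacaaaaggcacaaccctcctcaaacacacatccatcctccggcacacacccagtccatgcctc
NR2F1-AS1: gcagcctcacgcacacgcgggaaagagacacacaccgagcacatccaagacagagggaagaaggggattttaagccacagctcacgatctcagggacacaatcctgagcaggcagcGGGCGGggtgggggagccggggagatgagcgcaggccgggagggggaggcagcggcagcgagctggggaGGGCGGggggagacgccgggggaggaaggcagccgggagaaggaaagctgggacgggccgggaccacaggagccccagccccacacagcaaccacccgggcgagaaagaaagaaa
ICA1-AS1: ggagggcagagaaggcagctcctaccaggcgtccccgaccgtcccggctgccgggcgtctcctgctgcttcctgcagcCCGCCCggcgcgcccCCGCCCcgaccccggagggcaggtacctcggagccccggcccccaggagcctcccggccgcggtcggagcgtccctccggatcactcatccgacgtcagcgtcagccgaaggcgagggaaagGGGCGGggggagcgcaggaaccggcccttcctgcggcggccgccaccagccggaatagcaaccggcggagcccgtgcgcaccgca
The window of STX18-AS1 held 1 GC box, that of NR2F1-AS1 2 and that of ICA1-AS1 3. The UNC5B-AS1 window held 1 AP-1 match and 1 TATA match, and the IDI2-AS1 window held none of these letters. A match is a string of letters and not a shown binding site. Among the 199 members with a RefSeq promoter, GGGCGG occurred in 117 (58.8%), against 44.6% of all 27305 promoters of the same length. The letters TATAAA occurred in 13 members (6.53%, against 12% of all promoters), TGANTCA in 16 (8.04%, against 7.76%), CCAAT in 66 (33.2%, against 35.7%) and the E-box CACGTG in 21 (10.6%, against 7.43%). None of these motifs contains another.

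At 1000 nM, 58 of the 247 antisense genes were higher than in DMSO and 100 were lower by limma with Benjamini-Hochberg adjustment at 0.05. Called increases ran from 0.19 to 2.23 on the log2 scale with a median of 0.48, and called decreases reached 2.36 with a median of -0.68. Read against all tested genes, this was near the background: 158 members were called (64%), where 63.1% of all genes were called. By direction the members were 23.5% higher and 40.5% lower, against 27.3% and 35.8% of all genes. The median change of the members was -0.13, and that of all tested genes was -0.04. Their 193 tested sense genes gave 50 higher and 79 lower.

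At 500 nM, 51 antisense genes were higher and 81 lower, 53.4% in all, where 50.0% of all genes were called. By direction this was 20.6% higher and 32.8% lower, against 25.2% and 24.8% of all genes, and the medians were -0.10 for the members and 0.01 for all genes. The sense genes were 51 higher and 56 lower at this dose. Between 500 and 1000 nM directly, 31 members were higher and 75 lower at 1000 nM (42.9%), where 47.2% of all genes were called (15.4% higher and 31.8% lower). Over the 10 groups jointly, limma's F test called 189 members, where 71.4% of all genes were called, and 58 did not pass. In the 26 treated arrays the trend with log10 dose was called upward for 47 members and downward for 111, 158 in all, where 61.2% of all genes were called (28.6% upward and 32.7% downward).

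Other noncoding groups gave a frame for these counts. Of 105 long intergenic genes with LINC symbols, 17 were higher and 37 lower at 1000 nM (16.2% and 35.2%), and 16 were higher and 26 lower at 500 nM (15.2% and 24.8%). Of 83 divergent transcripts with -DT symbols, which start beside a coding gene and run the other way, 14 were higher and 45 lower at 1000 nM (16.9% and 54.2%), and 9 were higher and 25 lower at 500 nM (10.8% and 30.1%). Of 22 host genes of small RNAs, 6 were higher and 7 lower at 1000 nM (27.3% and 31.8%), and 9 were higher and 6 lower at 500 nM (40.9% and 27.3%). Of all tested genes 27.3% were higher and 35.8% lower at 1000 nM, and 25.2% and 24.8% at 500 nM, and the groups were not tested against each other. Of 5 intronic transcripts 2 were higher at 1000 nM and 0 lower, and of 3 -OT genes 1 was higher and 2 lower. When the actin and GAPDH 3′ to 5′ ratio of each array entered the fit as a covariate, 83 members were called at 1000 nM (33.6%, 26 higher and 57 lower), 78 at 500 nM (31.6%, 30 higher and 48 lower) and 1 in the trend. In the same fit 44.4% of all tested genes were called at 1000 nM, 40.3% at 500 nM and 0.279% in the trend. Asking for a change beyond 1.5-fold left 88 at 1000 nM (35.6%, 23 higher and 65 lower) and 53 at 500 nM (21.5%), where 23.1% and 13.5% of all genes remained.

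**Figure D1:**
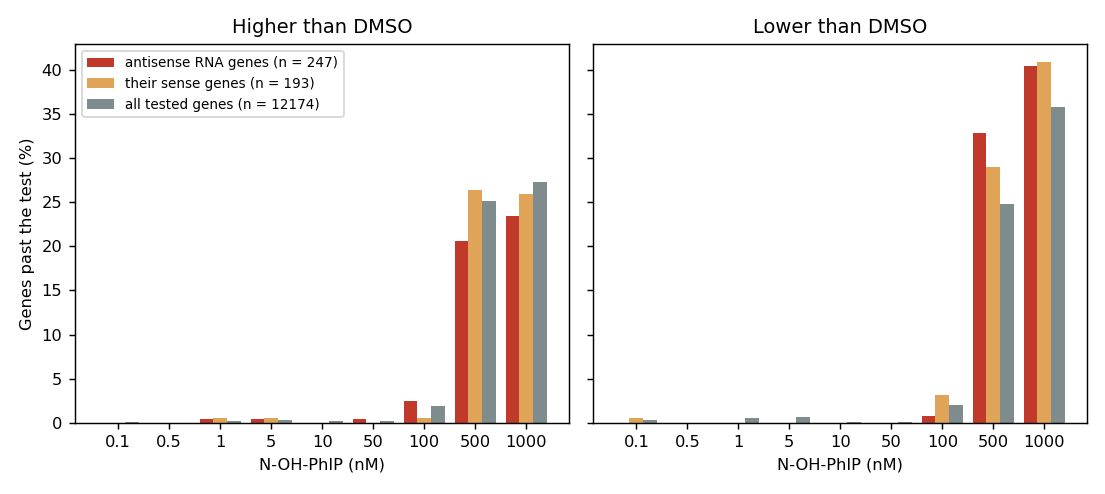
Share of genes past the test (vertical axes, percent) at each N-OH-PhIP dose (nM), higher than DMSO in the left panel and lower in the right, for the 247 antisense RNA genes, their 193 tested sense genes and all 12174 tested genes. Bars stay near 0 up to 50 nM and rise at 500 and 1000 nM, where 20.6% and 23.5% of the antisense genes were higher and 32.8% and 40.5% lower.

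Below 500 nM few antisense genes passed the test. At 100 nM, 6 were higher and 2 lower, 3.24% of the members, where 3.89% of all genes were called (1.85% higher and 2.04% lower). The 6 were UNC5B-AS1 (1.26 ± 0.16 SE), ZNF436-AS1 (0.68), PAN3-AS1 (0.64), SH3PXD2A-AS1 (0.45), ACTA2-AS1 (0.37) and PRKAR1B-AS1 (0.35), all log2 changes, and the 2 were DLGAP1-AS2 (-0.50) and STX18-AS1 (-0.44). Without DMSO replicate 1 the count was 3, and without DMSO replicate 2 or 100 nM replicate 2 it was 5, with the share of all genes not counted. PRKAR1B-AS1 lost its call with the replicate block and without any 1 of 20 arrays. At 50 nM the single call was UNC5B-AS1, where 0.287% of all genes were called. At 5 nM it was ZNF436-AS1, named for a zinc finger gene, at 0.58 (limma adjusted p = 0.045, and 0.054 with the replicate number as a block), where 0.977% of all genes were called. Its arrays read 102.6, 118.8 and 141.5 in DMSO and 203.5, 153.3 and 208.9 at 5 nM, which did not overlap.

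At 1 nM the single call was PPP3CB-AS1, named for a catalytic subunit of calcineurin, at 0.54 (limma adjusted p = 0.025), where 0.739% of all genes were called. It read 318, 368 and 381 in DMSO and 626, 510 and 453 at 1 nM, and later fell to a mean of 129 at 1000 nM. The 1 nM call was lost without DMSO replicate 1 or 2 or 1 nM replicate 1 or 2, with the 3′ to 5′ covariate (0.55, adjusted p = 0.15) and with the mean of probe sets (0.31, 0.17). The 5 nM call of ZNF436-AS1 was lost without any 1 of 17 arrays, DMSO replicates 1 and 2 among them, and with the 3′ to 5′ covariate (0.55, adjusted p = 0.055), an offset of 64 (0.052), no level filter (0.075) or no mean-variance trend (0.059). No member passed limma at 10, 0.5 or 0.1 nM, where 0.263%, 0.0329% and 0.427% of all genes were called. At these doses 35, 17 and 34 members had an unadjusted limma p under 0.05. Of all 12174 tested genes, 1487, 1131 and 1353 did. At 0.1 nM, 6 members passed without DMSO replicate 1, and 1 without DMSO replicate 3 or 0.1 nM replicate 1. At 10 nM, leaving out 500 nM replicate 3 gave 2. The share of all genes called was not counted in the fits with an array left out.

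UNC5B-AS1 rose at each dose from 50 nM on. It is named for UNC5B, a receptor for the guidance cue netrin. Its intensities were 39.8, 34.8 and 58.3 in DMSO, 83.4, 83.7 and 121.7 at 50 nM, 154, 126 and 103.5 at 100 nM, 318, 226 and 279 at 500 nM and 170, 145 and 161.5 at 1000 nM. From 50 nM on, every array lay above every DMSO array, and the highest group was 500 nM. The log2 change was 0.90 ± 0.16 (SE) at 50 nM with a limma adjusted p of 0.012, 2.27 ± 0.16 at 500 nM (1.6e-11) and 1.55 ± 0.16 at 1000 nM (7.7e-09). At 10 nM it was 0.73 with an adjusted p of 0.053. The 50 nM call was lost without DMSO replicate 1 or 2 or 50 nM replicate 3. UNC5B itself read 153, 132 and 176 in DMSO, 126, 149 and 144 at 500 nM and 227, 151 and 172 at 1000 nM, which overlapped, and it passed the test at no dose. The antisense to sense ratio, tested on its own, changed by 1.02 at 50 nM, 2.40 at 500 nM and 1.33 at 1000 nM on the log2 scale (limma adjusted p = 0.0031, 4.7e-11 and 4.7e-07).

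IDI2-AS1 rose most at 1000 nM. IDI2 is an isomerase of isoprenoid synthesis, and IDI2-AS1 overlaps it with a start 3222 bases away. IDI2-AS1 read 343, 380 and 381 in DMSO, 661, 547 and 612 at 500 nM and 1875, 2028 and 1492 at 1000 nM, with no overlap between these groups. Means from 0.1 to 100 nM stayed between 279 and 343. The log2 change was 0.69 ± 0.12 (SE) at 500 nM (limma adjusted p = 2.4e-05) and 2.23 ± 0.12 at 1000 nM (1.6e-14). With the 3′ to 5′ covariate the 500 nM change was 0.43 (adjusted p = 0.057) and the 1000 nM change 1.87. IDI2 read 182, 196 and 208 in DMSO and 187, 198 and 195 at 1000 nM, a change of -0.01 ± 0.10, and the ratio rose by 2.24 ± 0.15 (limma adjusted p = 4.3e-12).

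Other members also rose toward the top dose. ITGB2-AS1, named for the leukocyte integrin beta 2, read 44.9, 79.3 and 83.7 in DMSO, 160, 175 and 126 at 500 nM and 243, 291 and 258 at 1000 nM. Its log2 change was 1.02 ± 0.21 and then 1.75 ± 0.21 (limma adjusted p = 0.00032 and 8.7e-08). That probe set is of the _s type, and a second, dimmer one gave 0.45 and 0.79 (limma adjusted p = 0.018 and 8.5e-05). ZNF143-AS1, named for a zinc finger transcription factor, had means of 98.4, 133.9 and 294 (1.46 at 1000 nM). The mean of ALOX12-AS1, named for a lipoxygenase, went from 74.0 to 107.7 and 198, and that of KMT2E-AS1, named for a chromatin protein, from 46.7 to 76.8 and 126. SH3BP5-AS1 went from 55.8 to 85.1 and 139. Of the leukocyte markers, whose sum was 88.6 in DMSO and 129.5 at 1000 nM, PTPRC had a mean intensity of 9.11, under the level limit, and CD14 had 49.5, above it, and their part in the rise of ITGB2-AS1 was not tested. Without DMSO replicate 1, ALOX12-AS1 and SH3BP5-AS1 at 500 nM had adjusted p values of 0.072 and 0.054, and both passed at 1000 nM in every alternative that tested them. With the 3′ to 5′ covariate, the changes of ITGB2-AS1, ALOX12-AS1 and SH3BP5-AS1 at 500 nM were 0.86, 0.42 and 0.46, with adjusted p values of 0.05, 0.14 and 0.12. AFAP1-AS1, a long noncoding RNA reported as high in several cancers, read 393, 439 and 480 in DMSO, 716, 843 and 683 at 500 nM and 916, 933 and 952 at 1000 nM. Its log2 change was 0.75 ± 0.09 and 1.07 ± 0.09 (limma adjusted p = 6.9e-08 and 5.2e-11).

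A further pattern was a peak at 500 nM with a return toward DMSO at 1000 nM. RNF157-AS1, named for a ubiquitin ligase, read 27.2, 27.2 and 36.4 in DMSO, 144, 147 and 125 at 500 nM and 28.4, 19.9 and 35 at 1000 nM. It was above every other group at 500 nM by mean (30.2 in DMSO, 138.9 at 500 nM), and the difference between 1000 and 500 nM was -1.83 (limma adjusted p = 1e-09). DLGAP1-AS6 read 41.0, 55.2 and 40.8 in DMSO, 165, 161 and 161 at 500 nM and 27.9, 55.5 and 59.7 at 1000 nM, a log2 change of 1.54 at 500 nM and 0.01 at 1000 nM. SNAI3-AS1, named for a Snail family repressor, had means of 43.9, 97.3 and 49.0, and EML2-AS1, named for a microtubule-binding protein, of 48.8, 145 and 76.5. Of these 4, EML2-AS1 alone passed against DMSO at 1000 nM (0.51, limma adjusted p = 0.001, and 0.052 with the 3′ to 5′ covariate). A second, dimmer tested probe set of EML2-AS1 had means of 38.7, 44.6 and 42.3. It passed at neither 500 nor 1000 nM (0.15 and 0.09, limma adjusted p = 0.27 and 0.5). The mean of RNF157-AS1 in DMSO and at 1000 nM was under the level limit, as was the DMSO mean of 10 members in all. RNF157-AS1 thus entered the list through its higher groups, and its tests involving 500 nM are given as a description only. Of those 10, 3 were higher at 500 nM, and at 1000 nM 2 were higher and 1 lower.

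The 3 antisense genes of the DLGAP1 locus moved apart. DLGAP1 encodes a scaffold protein of synapses and was not analysed here. DLGAP1-AS2 fell from 262, 315 and 285 in DMSO to 207, 224 and 167 at 100 nM, 133, 121 and 108 at 500 nM and 66.5, 87.7 and 78.2 at 1000 nM, each group below every DMSO array. Its log2 changes were -0.50, -1.15 and -1.70 (limma adjusted p = 0.0049, 8.6e-10 and 2.3e-13). DLGAP1-AS1 read 313, 375 and 367 in DMSO, 577, 524 and 617 at 500 nM and 361, 465 and 417 at 1000 nM, so it rose at 500 nM (0.68, limma adjusted p = 4.2e-06) and missed the threshold at 1000 nM (adjusted p = 0.057). With DLGAP1-AS6 above, 1 member of this locus fell at both doses and 2 rose at 500 nM. These 3 are the only members that share a sense name, and DLGAP1-AS1 was added to the account after its values were seen.

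STX18-AS1 fell furthest. STX18 is a syntaxin of the endoplasmic reticulum, and both genes start 83 bases apart on opposite strands. STX18-AS1 read 148, 140 and 171 in DMSO, 125, 110 and 91.9 at 100 nM, 21.0, 29.8 and 25.6 at 500 nM and 14.5, 17.7 and 18.4 at 1000 nM. The groups from 100 nM on lay below every DMSO array, and the values at 500 and 1000 nM were under the level limit, where signal above background was not shown. The log2 change was -2.03 ± 0.11 (SE) at 500 nM and -2.36 ± 0.11 at 1000 nM (limma adjusted p = 1e-13 and 2.3e-15). STX18 read 1101, 1096 and 1171 in DMSO, 885, 1136 and 971 at 500 nM and 716, 841 and 709 at 1000 nM, a change of -0.17 (adjusted p = 0.062) and -0.57 (4.2e-07). The ratio fell by 1.85 and 1.79 on the log2 scale (limma adjusted p = 1.6e-13 and 2.2e-13), and at 1000 nM it was -2.53 with an offset of 1 and -0.88 with an offset of 64.

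The other large decreases began at 500 nM and mostly went further at 1000 nM. ZNF793-AS1, named for a zinc finger gene, read 268, 316 and 312 in DMSO, 117.5, 147.5 and 104.2 at 500 nM and 72.4, 81.1 and 98.4 at 1000 nM (-1.66 ± 0.12 SE at 1000 nM). LURAP1L-AS1 read 554, 531 and 561, then 346, 382 and 337, then 174, 227 and 192 (-1.41). In both, each dose lay apart from DMSO. The means of NRSN2-AS1 were 416, 231 and 151, and those of PPP3CB-AS1 356, 262 and 129. EIF1B-AS1, which starts 9 bases from a translation initiation factor gene without overlapping it, had means of 70.9, 22.2 and 21.7, and SCOC-AS1 of 59.8, 21.3 and 24.0, both ending under the level limit. HMMR-AS1, named for a hyaluronan receptor of dividing cells, had means of 322, 152 and 135, and HMMR fell as well (-0.43 and -0.77). HSD11B1-AS1, named for the enzyme that makes cortisol from cortisone, had means of 213, 101.5 and 113.3. With the 3′ to 5′ covariate PPP3CB-AS1 at 500 nM was at -0.44 (adjusted p = 0.081, where the fit without it gave -0.43), and SCOC-AS1 and HSD11B1-AS1 at 1000 nM were at -0.71 and -0.61 (0.12 and 0.097).

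For 3 genes, tested probe sets were called in opposite directions at 1000 or 500 nM. The brighter probe set of ZNF790-AS1 fell from 609 to 244 at 1000 nM (-1.26), and the second rose from 131 to 284 (1.03), with limma adjusted p values of 6.5e-14 and 1.6e-08. The mean of both was -0.11. CBR3-AS1, named for a carbonyl reductase, had a brighter probe set at -0.22 (limma adjusted p = 0.028), which lost its call without DMSO replicate 1 or 1000 nM replicate 2 or 3, and a second at 0.37 (0.011), and the sign of their mean was positive (0.08). For TRAF3IP2-AS1 at 500 nM, 2 probe sets were lower (-0.67 and -0.36) and 1 higher (0.45). In all, 57 members had more than 1 tested probe set. In some others 1 probe set was called at 1000 nM and another was not. Among them were CCDC18-AS1 (-0.76, and -0.06 with limma adjusted p = 0.63) and RBM26-AS1 (-0.70, and 0.31 with 0.052).

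The 5 brightest members had changes between -0.46 and 0.39 at the top doses. EPB41L4A-AS1, which hosts a small nucleolar RNA, had means of 5128, 4781 and 4642 in DMSO and at 500 and 1000 nM, a change of -0.14 ± 0.05 (SE) at 1000 nM (limma adjusted p = 0.011, 0.082 without 1000 nM replicate 2 and 0.22 with the 3′ to 5′ covariate). Its sense gene EPB41L4A was at -1.21 and -1.34 on the log2 scale. OIP5-AS1, the conserved RNA also known as Cyrano, read 3136, 3141 and 3127 in DMSO, 2561, 2491 and 2470 at 500 nM and 2169, 2293 and 2362 at 1000 nM, so the groups did not overlap. Its change was -0.32 ± 0.04 and -0.46 ± 0.04 (limma adjusted p = 6.4e-08 and 4.1e-11), and that of OIP5, a centromere protein, was -0.62 and -0.93. FGD5-AS1 had means of 5130, 4739 and 4865 and did not pass at either dose. MIF-AS1, named for a cytokine gene, was higher at 1000 nM (0.39, limma adjusted p = 0.00099), with MIF at 0.42. The probe set of MIF-AS1 is of the _s type, and signal of MIF in it was not tested. CKMT2-AS1 was at -0.14 and -0.16, and its call was lost under several alternatives.

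**Figure D2:**
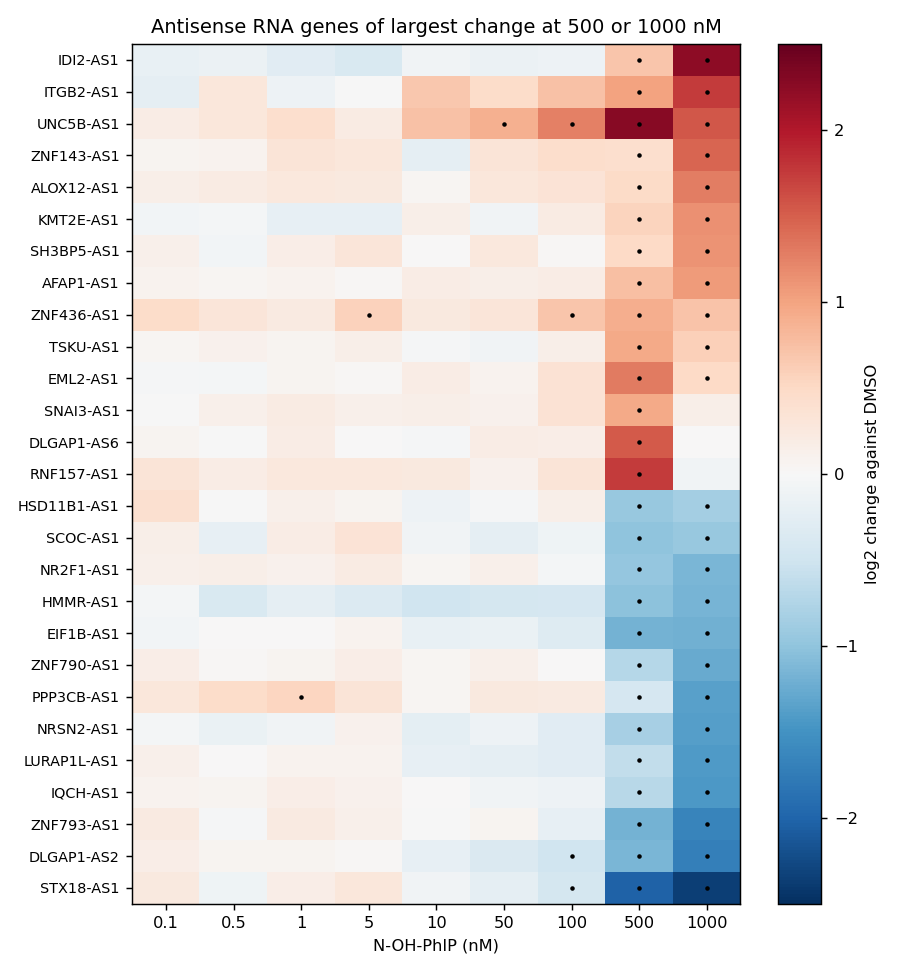
Log2 change against DMSO (colour, red higher and blue lower) of the 27 antisense RNA genes with the largest called changes at 500 or 1000 nM, in rows, at each N-OH-PhIP dose (nM), in columns. Dots mark values past the test, which lie at 500 and 1000 nM except for UNC5B-AS1, ZNF436-AS1, PPP3CB-AS1, DLGAP1-AS2 and STX18-AS1.

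Each antisense gene was then set against its own sense gene. Of the 247, 227 had a sense gene with a probe set that carried its symbol alone, the other 20 sense genes were not analysed here, and 193 of these sense genes were at or above the level limit, 34 being below it. In the RefSeq gene table, 190 pairs overlap and 35 do not, with 2 unknown. At 1000 nM both genes of a pair were called in 88 of the 193 pairs, in the same direction in 58 and in opposite directions in 30. Of the 58, 42 were lower in both genes and 16 higher in both. Decreases outnumbered increases among antisense and sense genes alike, so some pairs share a direction from that lean alone. The share expected from it was not counted, so these counts do not show that the genes of a pair moved together. Only the antisense gene was called in 40 pairs, only the sense gene in 41 and neither in 24. At 500 nM both were called in 58 pairs, 41 in the same direction and 17 in opposite directions, with 45 antisense only, 49 sense only and 41 neither. Across the 193 pairs the log2 changes of the 2 genes correlated at r = 0.24 at 1000 nM and 0.16 at 500 nM, as a description, since pairs share their arrays.

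The ratio within an array tests whether the 2 genes moved unequally. It was called in 121 of 193 pairs at 1000 nM (62.7%, 58 higher and 63 lower) and in 102 at 500 nM (52.8%, 45 higher and 57 lower). Over all 715 pairs at any level, 47.0% were called at 1000 nM (28.3% higher and 18.7% lower) and 38.7% at 500 nM (20.7% and 18.0%). The 193 pairs have both genes at or above the level limit and the others of the 715 do not, so these shares differ in level as well. With the 3′ to 5′ covariate the counts were 67 and 61 of the 193 pairs, and the share of all 715 pairs was not counted in that fit. By layout, 72 pairs lie on opposite strands with starts within 1000 bases, and in 18 of the 31 of these with both genes called at 1000 nM the direction was the same (58.1%). Of 90 pairs with starts further apart, it was the same in 24 of 34 (70.6%). At 500 nM these shares were 16 of 21 (76.2%) and 17 of 24 (70.8%), so the order was not the same at the 2 doses, and it was not tested. The layout of 64 other pairs was unknown, and 1 pair lies on the same strand. Among the unknown pairs with both genes called, the direction was the same in 16 of 23 at 1000 nM (69.6%) and 8 of 13 at 500 nM (61.5%).

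**Figure D3:**
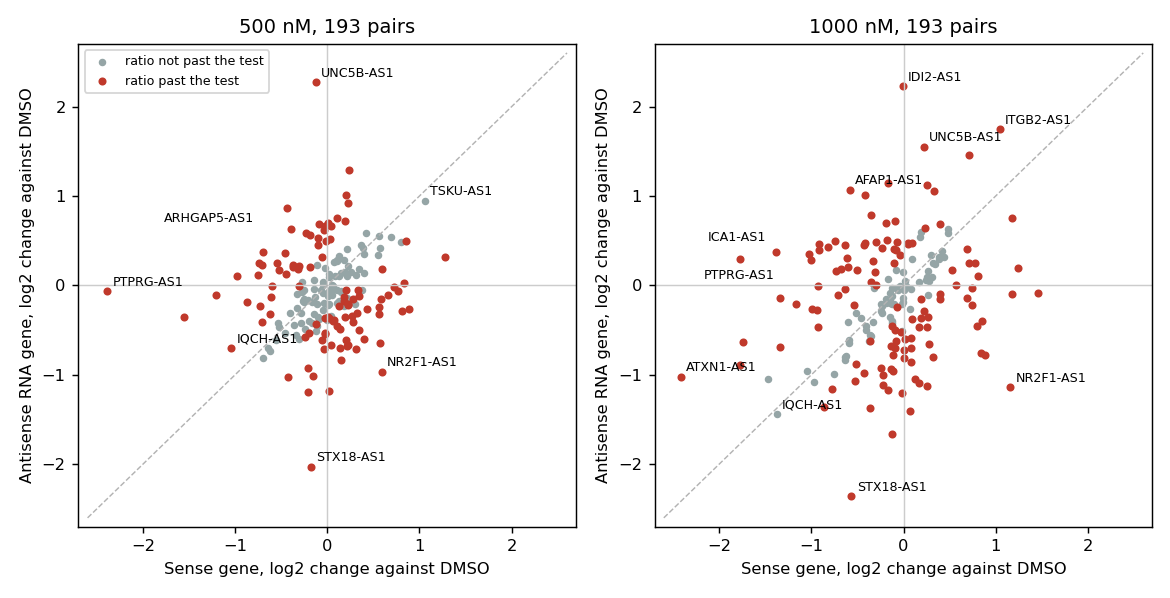
Log2 change against DMSO of each antisense RNA gene (vertical) against that of its sense gene (horizontal) at 500 nM (left) and 1000 nM (right) for 193 pairs, each point 1 pair, with red points where the antisense to sense ratio passed the test (102 and 121 pairs) and a dashed line of equal change. Points spread to all 4 quadrants, with UNC5B-AS1, IDI2-AS1 and STX18-AS1 far from the line.

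Opposite movement was widest at NR2F1, which encodes a nuclear receptor of the COUP-TF family. NR2F1-AS1 overlaps it with a start 2367 bases away. NR2F1-AS1 read 255, 280 and 254 in DMSO, 128, 134 and 118 at 500 nM and 132, 106 and 97.1 at 1000 nM. NR2F1 read 107, 98.3 and 104 in DMSO, 152, 152 and 187 at 500 nM and 263, 258 and 228 at 1000 nM. Every treated array at these doses lay below DMSO for the antisense gene and above it for the sense gene. The changes at 1000 nM were -1.14 ± 0.10 (SE) and 1.16 ± 0.16, and the ratio changed by -2.29 ± 0.15 (limma adjusted p = 3e-12).

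Further opposite pairs at 1000 nM went either way. ARRDC3-AS1 fell by 0.78 while ARRDC3, an arrestin family gene, rose by 0.88. By its brighter probe set CCDC18-AS1 fell by 0.76 (its second was at -0.06, limma adjusted p = 0.63) while CCDC18 rose by 0.84. The reverse held for AFAP1, an actin filament protein, which fell by 0.58 while AFAP1-AS1 rose by 1.07. ARHGAP5 fell by 0.75 with ARHGAP5-AS1 at 0.50, and SH3PXD2A, a scaffold of invasive cell protrusions, fell by 0.92 with SH3PXD2A-AS1 at 0.46. At 500 nM the opposite pairs included PRRT3-AS1 (-0.65) with PRRT3 (0.58), PRKAR1B-AS1 (0.87) with PRKAR1B (-0.44), a regulatory subunit of protein kinase A, and DHX9-AS1 (-0.60) with the helicase DHX9 (0.40). Without DMSO replicate 1, DHX9-AS1 was at -0.17 (adjusted p = 0.5) and SH3PXD2A-AS1 at 0.27 (0.094). It was also lost for DHX9-AS1 without 500 nM replicate 1 or 2 and for SH3PXD2A-AS1 without 500 nM replicate 2. PRRT3-AS1 was at an adjusted p of 0.065 without DMSO replicate 2 and 0.05 without 500 nM replicate 1. With the 3′ to 5′ covariate CCDC18-AS1, ARHGAP5-AS1 and SH3PXD2A-AS1 at 1000 nM were at -0.64, 0.33 and 0.32 (adjusted p = 0.079, 0.31 and 0.29), and DHX9-AS1 at 500 nM was at -0.73 (0.14). DHX9-AS1 also missed the threshold with no level filter (0.069) and with no mean-variance trend (0.05).

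Pairs that moved together included IQCH, a gene with a calmodulin-binding motif. IQCH-AS1 read 248, 302 and 260 in DMSO and 81.8, 80.0 and 109.1 at 1000 nM, and IQCH read 68.0, 79.8 and 92.3 in DMSO and 19.4, 18.1 and 25.4 at 1000 nM. They fell by 1.43 and 1.37 on the log2 scale, and the ratio was at -0.06 (limma adjusted p = 0.69). The IQCH values at 1000 nM are under the level limit, and the ratio depended on the offset, being 0.31 with an offset of 1 (adjusted p = 0.068) and -0.36 with an offset of 64 (0.00073), so equal size was not shown. TSKU, a secreted proteoglycan, and TSKU-AS1, whose starts are 294 bases apart, both peaked at 500 nM. TSKU-AS1 read 55.8, 74.3 and 65.3 in DMSO, 135, 139 and 146 at 500 nM and 126, 115 and 80.9 at 1000 nM. TSKU read 142, 156 and 172, then 358, 427 and 261, then 239, 216 and 221. The changes at 500 nM were 0.95 and 1.06, and the ratio was at -0.11 ± 0.15 (adjusted p = 0.63 by limma).

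Equal direction did not always mean equal size. ATXN1, the gene of a polyglutamine ataxia, read 269, 299 and 327 in DMSO and 43.3, 36.9 and 48.8 at 1000 nM, while ATXN1-AS1 went from 138, 138 and 137 to 62.2, 61.4 and 55.4. The changes were -2.41 and -1.02, and the ratio rose by 1.39 (limma adjusted p = 4.7e-09). A second, dimmer probe set of ATXN1-AS1 was at -0.34 (limma adjusted p = 0.0077). ITGB2 rose by 1.04 where ITGB2-AS1 rose by 1.75 by its brighter probe set and by 0.79 by its second. The ratio, taken on the brighter one, rose by 0.70 (limma adjusted p = 0.0032). WARS2, a mitochondrial tRNA synthetase, fell by 1.47 with WARS2-AS1 by 1.05, and the calcium pump gene ATP2A1 fell by 0.97 with ATP2A1-AS1 by 1.09. BCDIN3D and BCDIN3D-AS1 fell by 1.05 and 0.96, the latter by a probe set of the _s type. A second probe set of BCDIN3D-AS1 was under the level limit, with means of 14.6 in DMSO and 15.7 at 1000 nM. The ratios of WARS2-AS1, ATP2A1-AS1 and BCDIN3D-AS1 did not pass (limma adjusted p = 0.055, 0.19 and 0.29). For 2 of them this depended on the offset. The ratio of WARS2-AS1 was 0.50 with an offset of 1 (limma adjusted p = 0.036). That of ATP2A1-AS1 was -0.22 with an offset of 64 (0.0026). Neither equal nor unequal size was shown for these pairs. At 500 nM LYRM4, a protein of iron-sulfur cluster assembly, and LYRM4-AS1 fell by 0.65 and 0.70. MICA, a ligand of natural killer cells, and MICA-AS1 rose by 0.56 each at this dose. Neither ratio passed (limma adjusted p = 0.82 for LYRM4-AS1 and 0.97 for MICA-AS1), but with an offset of 64 that of LYRM4-AS1 did (0.26, adjusted p = 0.038). Under the 3′ to 5′ covariate MICA-AS1 was at 0.42 (adjusted p = 0.08), and LYRM4-AS1 had a mean of 24.8 at 500 nM, under the level limit.

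In some pairs the antisense gene stayed near its DMSO level as the sense gene fell. PTPRG encodes a receptor tyrosine phosphatase and read 184, 244 and 240 in DMSO, 103, 84.4 and 68.0 at 100 nM, 14.5, 36.0 and 42.3 at 500 nM and 55.5, 56.2 and 48.4 at 1000 nM. Its log2 change was -1.24 at 100 nM, -2.39 at 500 nM and -1.77 at 1000 nM. PTPRG-AS1 read 60.9, 76.2 and 93.6 in DMSO, 69.8, 82.6 and 64.1 at 500 nM and 90.4, 97.0 and 102.3 at 1000 nM, which overlapped, with changes of -0.07 ± 0.13 (SE) and 0.29 ± 0.13. The ratio rose by 2.32 and 2.06 (limma adjusted p = 3.3e-10 and 1.8e-09). Of the 3 PTPRG values at 500 nM, 2 are under the level limit, and that ratio was 2.85 with an offset of 1 and 1.55 with an offset of 64.

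ICA1, an islet autoantigen gene, read 326, 338 and 358 in DMSO and 141, 109 and 115 at 1000 nM (-1.38), while ICA1-AS1, which starts 58 bases away on the other strand, read 61.8, 85.0 and 90.7 and then 138, 85.6 and 102. ICA1-AS1 was at 0.38 ± 0.15 (limma adjusted p = 0.035), a call lost without DMSO replicate 1 (adjusted p = 0.21), without 1000 nM replicate 1 (0.26), with no level filter (0.062) and with the 3′ to 5′ covariate (0.49). The ratio rose by 1.76 ± 0.12 (limma adjusted p = 1.2e-11).

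**Figure D4:**
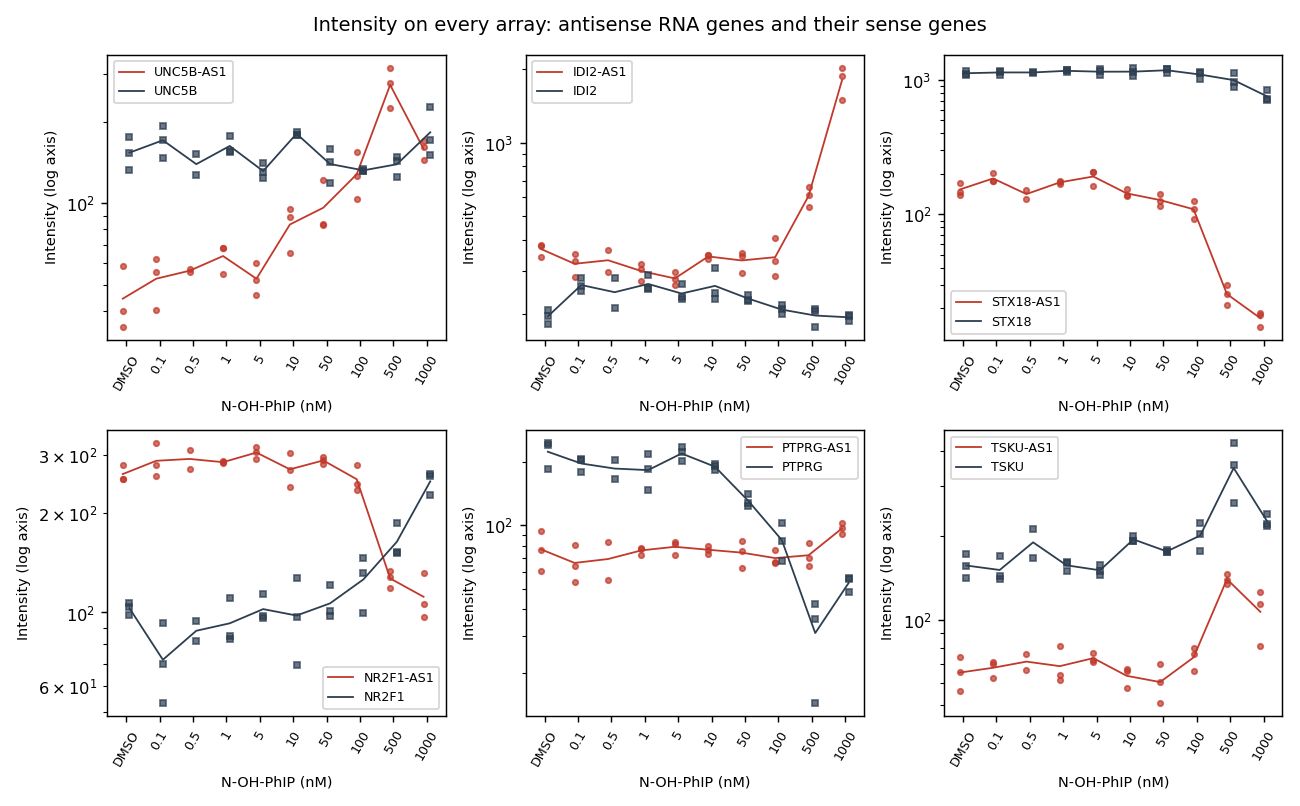
Intensity (log axis) on every array for DMSO and each N-OH-PhIP dose (nM) of 6 antisense RNA genes (red circles) and their sense genes (dark squares), with lines through group means; the heights of the 2 genes in a panel are not comparable. UNC5B-AS1, IDI2-AS1 and STX18-AS1 moved further than their sense genes, NR2F1-AS1 fell as NR2F1 rose, PTPRG fell beside a level PTPRG-AS1, and TSKU-AS1 and TSKU peaked together at 500 nM.

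Where fitted sizes rest on dim signal they depend on the constant added before taking logs. Over the alternatives that tested them, the change of STX18-AS1 at 1000 nM ranged from -3.11 to -1.42. That of RNF157-AS1 at 500 nM ranged from 1.11 to 2.17 and that of EML2-AS1 at 500 nM from 0.72 to 1.53. Each was past the limma threshold in those runs, though RNF157-AS1 entered the list through its higher groups. Of 83 changes at 500 and 1000 nM named here by rule, for 48 genes, 57 kept their call under every alternative that tested them. The upper 25% of mean level tested 30 of the 83, and the minimum change of 1.5-fold was applied to counts only.

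Some antisense genes reversed direction between the 2 top doses. KCNJ5-AS1, named for a potassium channel gene, read 49.0, 61.9 and 73.3 in DMSO, 103.6, 113.7 and 89.4 at 500 nM and 39.7, 30.0 and 45.3 at 1000 nM, changes of 0.62 and -0.51 (limma adjusted p = 0.0065 and 0.017). EMC3-AS1, named for a subunit of a membrane protein insertase, was at -0.32 and then 0.25 (limma adjusted p = 0.0067 and 0.021). Both differed between 500 and 1000 nM (adjusted p = 1.6e-05 and 2e-05), and both were picked after their values were seen.

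By group means over the 10 groups, the genes most like 4 members were found by Pearson correlation, as a description. The profile of STX18-AS1 was closest to PLCB1, a phospholipase (r = 0.997), and then GLIS3 and PRTFDC1. That of IDI2-AS1 was closest to PLAGL1, a zinc finger factor (0.997), and then SMCR8 and PITHD1. That of ZNF790-AS1, by its brighter probe set, was closest to GLG1 (0.998), PIGU and PRIM1, and that of DLGAP1-AS2 to MAPK6 (0.994), HYLS1 and FBXO28. Of the 19 members with a sense name of the ZNF, ZSCAN, ZBTB or ZBED type, 7 were higher and 5 lower at 1000 nM (63.2%, against 63.1% of all genes), and 3 were higher and 7 lower at 500 nM (52.6%, against 50.0%).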

How the data were processed

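Per the labels' protocols, NuGEN Ovation amplified 40 ng of RNA from each culture for an Affymetrix 3′ array. The files hold intensities on a linear scale for each probe set, normalized by the authors. GCOS is the tool in the submitters' processing notes, and its version and the normalization method are not given in the sources used here. No further normalization was applied. The labels' design text starts at 0.5 nM and the titles at 0.1 nM, and the titles were used.

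The deposited intensities were turned into log2(intensity + 16). Of 54675 probe sets, 62 controls were left out, 41091 had 1 gene symbol in the array annotation, 1801 had several and 11721 none. The 27307 at or above the median mean level were tested in 1 limma fit (limma 3.58.1, R 4.3.3) with 10 group means, a mean-variance trend and 19 residual degrees of freedom, two-sided, with Benjamini-Hochberg adjustment over all of them at 0.05. Ratios of all 715 pairs were fitted without the trend. P-values measure the spread between cultures of 1 line, and 3 arrays a group limit the precision. The code was tested on simulated data. Figures used matplotlib 3.10.9.

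Members and lists were chosen with earlier results of these data known. Named by rule were the 8 members with the largest called changes each way at 500 and 1000 nM, and up to 3 each way at lower doses. Also named were up to 6 pairs each of opposite and same direction and 6 pairs of largest ratio change. The 5 brightest members and those with probe sets called in opposite directions were named too. Alternatives were the offset, quantile normalization, the level filter, the trend, a minimum change of 1.5-fold, a replicate block, the 3′ to 5′ covariate, the mean of a gene's probe sets and each array left out. Leaving out DMSO replicate 1 with 500 nM replicate 3 was chosen after seeing the data. RefSeq (GRCh38.p14) tables held 245 members and promoters of 199, and positions of genes come from there.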

Additional observations from a re-analysis of the deposited data

How the results depend on the processing

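Members called at 1000, 500, 100, 50, 10, 5, 1, 0.5 and 0.1 nM numbered 158, 132, 8, 1, 0, 1, 1, 0 and 0. A minimum change of 1.5-fold gave 88, 53 and 3 at 1000, 500 and 100 nM, 0 at 5 and 1 nM, 31 between 1000 and 500 nM and 62 ratios at 500 nM. The upper 25% of mean level, which tests fewer genes, gave 48, 43, 1 and 0 at 1000, 500, 100 and 50 nM, 3 at 1 nM, 35 between the top doses, 58 over all groups and 47 in the trend. The 3′ to 5′ covariate gave 83, 78, 1, 2 and 0 at 1000, 500, 10, 5 and 1 nM, 115 over all groups, 1 in the trend and 67 and 61 ratios at 1000 and 500 nM, and the cause was not tested. At 10 nM an offset of 1, quantile normalization, the replicate block and the mean of probe sets each gave 1. At 5 nM an offset of 64, no level filter, no mean-variance trend and the replicate block each gave 0. Quantile normalization gave 2 at 1 nM, the mean of probe sets 0, and no level filter 4 at 100 nM. The mean of probe sets turned CBR3-AS1 at 1000 nM to 0.077.

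Leaving out each array gave 142 to 162 at 1000 nM, 113 to 138 at 500 nM, 3 to 10 at 100 nM, 0 to 1 at 50 nM, 0 to 2 at 10 nM, 0 to 3 at 5 nM, 0 to 2 at 1 nM, 0 at 0.5 nM, 0 to 6 at 0.1 nM, 94 to 111 between the top doses, 174 to 193 over all groups, 146 to 161 in the trend, and 107 to 123 and 91 to 105 ratios. DMSO replicate 1 and 500 nM replicate 3 left out together gave 5, 0 and 8 at 100, 1 and 0.1 nM. By the median, replicate numbers showed no pairing of the samples. Deviations of same-numbered arrays correlated at a median of 0.0141 (highest 0.746), with 37 of 126 over 0.1. Those of differently numbered arrays correlated at a median of -0.0204 (highest 0.5), with 57 of 252. A batch shared by only some groups was not tested. The replicate block left 158 at 1000 nM and 132 at 500 nM. The fit without the trend was not run for ratios, whose fit has none. Signal over background was not tested, since detection calls were not used here.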
